A study of Mus musculus with 6 samples.

Results

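The genes described here are those that make prostaglandin E2 and prostaglandin D2 and those that encode the receptors for prostaglandin E2. They comprise Ptgs1, Ptgs2, Ptges, Ptges2, Ptges3, Ptgds, Ptger1, Ptger2, Ptger3 and Ptger4. Members were taken as every probe set that the platform annotation pairs with 1 of these 10 genes and no other gene. The rule found 15 probe sets for 8 genes, of 34945 single-gene probe sets for 18193 genes on the array. Ptgs1 was paired with no probe set in the annotation used here, and the 2 probe sets of Ptges3 were shared with Ptges3-ps, so both genes were not analysed here. Expression was measured on 6 Affymetrix arrays, each hybridised with RNA pooled from the whole brains of 6 mice of the C57BL/6 strain, written C57BL/6J in the treatment protocol. Pups of both sexes received, on postnatal day 2, an intraperitoneal injection of 1 mg of testosterone propionate (TP, an esterified testosterone) dissolved in 20 µL of sesame oil. The vehicle groups received 20 µL of the oil alone, and all brains were collected on postnatal day 6. There were 2 arrays of vehicle-treated females, 2 of TP-treated females, 1 of a vehicle-treated male pool and 1 of a TP-treated male pool. For each female treatment, 1 array is labelled a replica, with nothing said of whether other animals were used. The p-values in females, and for a TP effect that differs by sex, measure the spread between these arrays, which may be technical. Over both sexes and between sexes, the spread also takes in how far the male TP difference departs from the female one.

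Prostaglandins are lipid signals made from arachidonic acid. Phospholipases release the acid from membranes, the cyclooxygenases Ptgs1 and Ptgs2 turn it into prostaglandin H2, and terminal synthases turn that into single prostaglandins. Prostaglandin E2 acts on the EP receptors, which are G protein-coupled. In the preoptic area of the newborn rodent, estradiol formed from testosterone by aromatase raises cyclooxygenase expression, and the resulting prostaglandin E2 increases dendritic spines by way of cyclic AMP signalling. Microglia and mast cells are part of that response. The question put to the data is whether these genes differed in the whole brain between TP and vehicle, and between the sexes.

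The values are log2 expression levels, and array medians lay between 5.69 and 5.74. Xist, the X-inactivation transcript that marks female RNA, read 12.6 to 12.8 on the female arrays, 5.29 on the male vehicle array and 10.4 on the array labelled male TP. Eif2s3y, a Y-linked gene, read 9.16 and 9.12 on the male vehicle and male TP arrays and 2.84 to 3.10 on the female arrays. On the male vehicle and male TP arrays, the sex-linked gene Kdm5d read 7.17 and 6.80, and Uty 4.84 and 5.54. Both read 2.44 to 2.69 on the female arrays. Marker genes of the pituitary had a summed level at 294% of the vehicle mean on the array labelled male TP and at 90.8% to 110% on the other arrays. Markers of cartilage and bone stood at 146% and 147% on the female TP arrays and at 88.6% to 103% elsewhere. The 40th percentile of the mean levels of all single-gene probe sets was 5.49. Below it lay 4 of the 7 measured pituitary markers and 8 of the 10 of cartilage and bone. Because the array labelled male TP goes against its label for Xist, member differences over both sexes are given beside those in females, which do not use it.

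No member probe set differed between TP and vehicle past the threshold, an adjusted p under 0.05 in limma's moderated test with Benjamini-Hochberg adjustment over all single-gene probe sets. The members whose TP arrays all lay below the vehicle arrays were Ptges2 and 2 of the 3 probe sets of Ptges, both encoding prostaglandin E synthases. Over both sexes, with sex as a term, 0 of 15 member probe sets passed, as did 0% of all 34945. At an unadjusted p under 0.05 there were 3 member probe sets, all lower after TP and none higher, against 12.3% of all probe sets in either direction. The 3 TP arrays lay below the 3 vehicle arrays at those same 3 of 15 member probe sets, against 9.12% of all, and above them at 0 of 15, against 6.01% of all. The member differences ran from -0.28 to 0.16, with a median of -0.04 beside -0.02 over all single-gene probe sets. A set is called dim here when its mean lies under 5.49, the 40th percentile of all single-gene probe sets, and 9 of the 15 member sets were dim. On whole-brain RNA, a smaller number of cells of a type and less RNA per cell cannot be told apart.

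**Figure D1:**
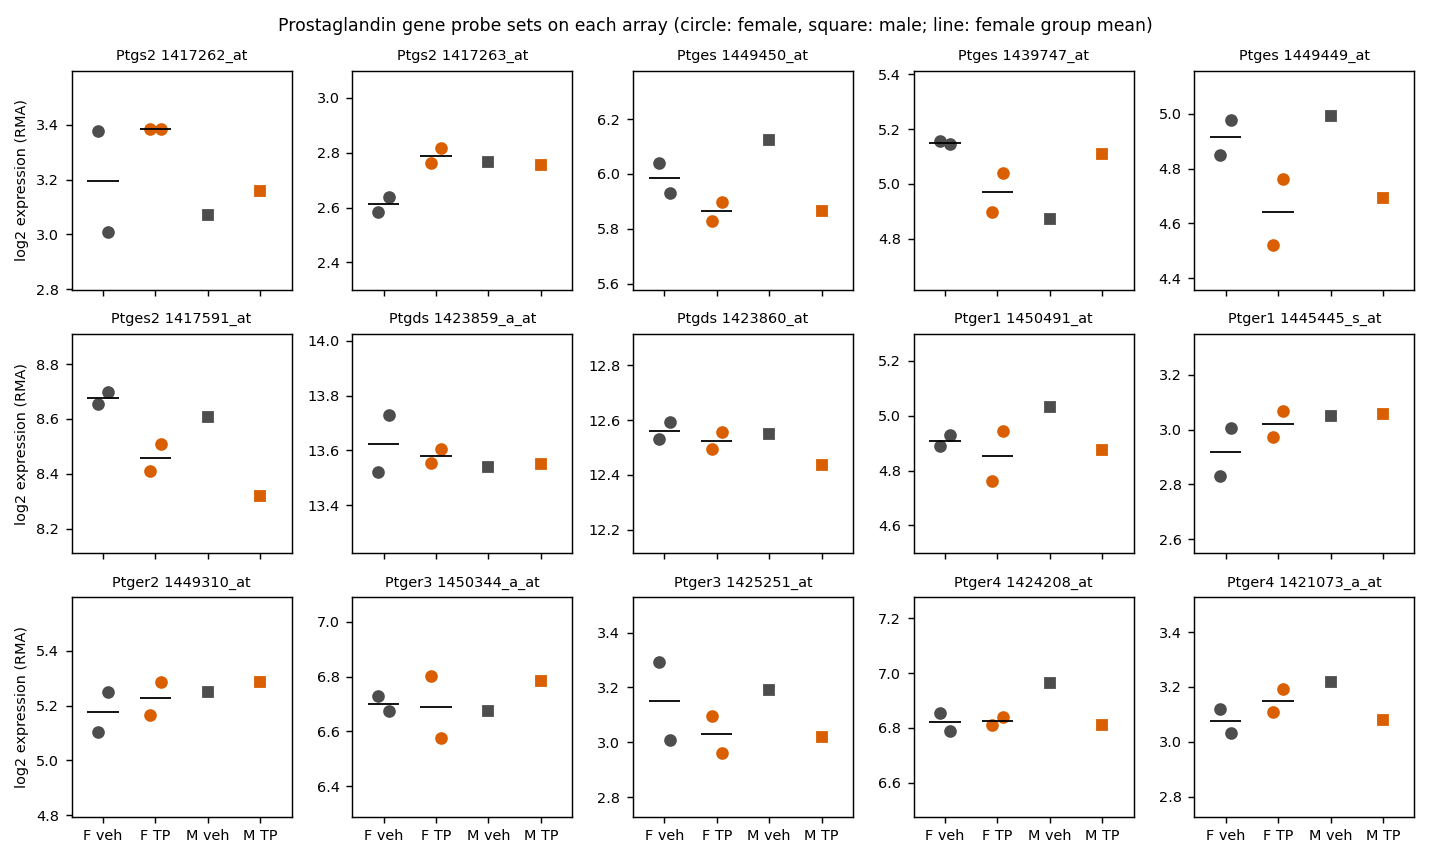
Log2 expression level of each of the 15 member probe sets on the 6 arrays, with 1 panel per probe set and 1 point per array, grouped by sex and treatment. The TP points of Ptges2 and of the Ptges probe sets 1449450_at and 1449449_at lie below all vehicle points, and the TP and vehicle points of the other sets overlap over both sexes.

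Ptgs2 encodes the inducible cyclooxygenase, the enzyme whose induction by estradiol is described for the preoptic area. Its promoter is shown because it is the member expected to respond to the hormone. Those of Ptges and Ptges2 are shown because the Ptges2 set and some Ptges sets lay lower after TP without overlap. None of these sets passed the threshold. The sequences are RefSeq's for GRCm38.p6, from 250 bases before to 50 bases after the annotated start, with matches to the searched motifs in capitals.
Ptgs2, chr1:150099781-150100080, plus strand: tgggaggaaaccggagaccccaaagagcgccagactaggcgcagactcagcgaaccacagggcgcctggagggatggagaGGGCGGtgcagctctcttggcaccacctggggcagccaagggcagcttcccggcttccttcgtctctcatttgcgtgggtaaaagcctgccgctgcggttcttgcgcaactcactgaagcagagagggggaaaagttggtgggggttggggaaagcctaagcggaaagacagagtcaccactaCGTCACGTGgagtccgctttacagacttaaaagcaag
Ptges, chr2:30903248-30903547, minus strand: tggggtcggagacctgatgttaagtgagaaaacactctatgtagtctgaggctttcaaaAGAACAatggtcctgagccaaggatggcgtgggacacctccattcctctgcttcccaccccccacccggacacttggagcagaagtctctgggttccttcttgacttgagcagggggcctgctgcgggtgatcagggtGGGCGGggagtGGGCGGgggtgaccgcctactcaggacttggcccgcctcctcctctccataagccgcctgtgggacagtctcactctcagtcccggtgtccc
Ptges2, chr2:32395640-32395939, plus strand: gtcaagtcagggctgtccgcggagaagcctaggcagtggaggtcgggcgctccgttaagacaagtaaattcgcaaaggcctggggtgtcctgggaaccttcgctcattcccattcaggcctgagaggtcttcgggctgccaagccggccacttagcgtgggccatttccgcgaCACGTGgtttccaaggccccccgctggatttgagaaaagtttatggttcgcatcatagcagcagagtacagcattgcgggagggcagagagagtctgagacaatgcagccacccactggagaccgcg
Of the 10 genes, 9 had an entry in the promoter table, which holds 32851 promoters. In Ptgs2 the capitals mark a GC box, GGGCGG, and an overlapping pair near the end. The pair lies after the annotated start and is the E box CACGTG and the cyclic AMP response half-site TGACG read on the opposite strand. In Ptges the capitals mark the androgen receptor half-site AGAACA and a pair of GC boxes, and in Ptges2 an E box. On either strand, the GC box occurred in 35.7% of all promoters of this length, the E box in 7.15%, the cyclic AMP half-site in 20.8% and the androgen receptor half-site in 19.0%. The GC box was found in 5 of the 9 member promoters, the E box and the cyclic AMP half-site in 2 each, and the androgen receptor half-site in 3. The estrogen receptor half-site AGGTCA was in none of the 9 and in 16.3% of all promoters. The full estrogen element, GGTCA and TGACC with 3 bases between, was in none of the 9 and in 0.07% of all. The full cyclic AMP element TGACGTCA was in none of the 9 and in 1.79% of all, and the TATA box letters TATAAA in none of the 9 and in 13.6%. The letters CCAAT were in 2 of the 9 and in 37.4% of all. These are letter matches within 300 bases, not measured binding.

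Both Ptgs2 probe sets were dim, which limits what they can show. Ptgs2 by 1417262_at read 3.38 and 3.01 on the female vehicle arrays, 3.39 on both female TP arrays, 3.07 on the male vehicle array and 3.16 on the male TP array. The TP and vehicle values overlapped, and 1 female vehicle array was almost as high as the female TP arrays. The difference over both sexes was 0.16 ± 0.10 (SE, 3 arrays against 3), with a 95% interval from -0.07 to 0.38 and an adjusted p of 0.544 in limma. In females it was 0.19 ± 0.13 (adjusted p = 0.749). Both values rest on the lower vehicle female, replicate 2: without it they were 0.04 and 0.0064, and without vehicle female replicate 1 they were 0.25 and 0.37. Ptgs2 by 1417263_at read 2.58 and 2.64 in vehicle females, 2.76 and 2.82 in TP females, 2.77 in the vehicle male and 2.76 in the TP male. Here the female TP arrays were above the female vehicle arrays and the male arrays were level. The difference was 0.12 ± 0.07 over both sexes (adjusted p = 0.519 in limma) and 0.18 ± 0.08 in females (adjusted p = 0.646).

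Ptges2 encodes microsomal prostaglandin E synthase-2, a membrane-associated terminal synthase. It read 8.65 and 8.70 on the female vehicle arrays, 8.41 and 8.51 on the female TP arrays, 8.61 on the male vehicle array and 8.32 on the male TP array. All 3 TP arrays lay below all 3 vehicle arrays. The difference over both sexes was -0.24 ± 0.06 (SE, 3 against 3), the 95% interval ran from -0.39 to -0.10, and the adjusted p in limma was 0.305. In females alone it was -0.22 ± 0.08, with an interval from -0.41 to -0.02 and an adjusted p of 0.622, and between the 2 male arrays it was -0.29, with no test. Of the 15 member probe sets, Ptges2 had the smallest p in both comparisons, and neither passed the threshold.

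Ptges encodes microsomal prostaglandin E synthase-1, the inducible terminal synthase that works with Ptgs2. Its probe set 1449450_at, the only one of 3 that was not dim, read 6.04 and 5.93 in vehicle females, 5.83 and 5.90 in TP females, 6.12 in the vehicle male and 5.86 in the TP male. The TP arrays were all below the vehicle arrays, by a small margin in females. The difference over both sexes was -0.17 ± 0.07 with an interval from -0.33 to -0.01 and an adjusted p of 0.392 in limma. It was -0.12 ± 0.08 in females (adjusted p = 0.755), where it was -0.07 without vehicle replicate 1, and -0.26 between the male arrays. By 1449449_at, Ptges read 4.85 and 4.98 in vehicle females, 4.52 and 4.76 in TP females, 4.99 in the vehicle male and 4.69 in the TP male. Again no TP array reached a vehicle array, and this set had the widest range of any member, 0.47 over the 6 arrays. The difference was -0.28 ± 0.08, with an interval from -0.47 to -0.09 and an adjusted p of 0.316 in limma. In females it was -0.27 ± 0.11 (adjusted p = 0.625), where it was -0.15 without TP replicate 1, and between the male arrays -0.30. The third Ptges set, 1439747_at, did not share that order in males. It read 5.16 and 5.14 in vehicle females, 4.90 and 5.04 in TP females, 4.87 in the vehicle male and 5.11 in the TP male, so the TP value was lower in females and higher in the male. Its difference over both sexes was -0.04 ± 0.10 (adjusted p = 0.892 in limma), made of -0.18 ± 0.08 in females and 0.24 between the male arrays. Its TP difference in males exceeded that in females by 0.42 ± 0.15, with an adjusted p of 1.00 in limma.

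**Figure D2:**
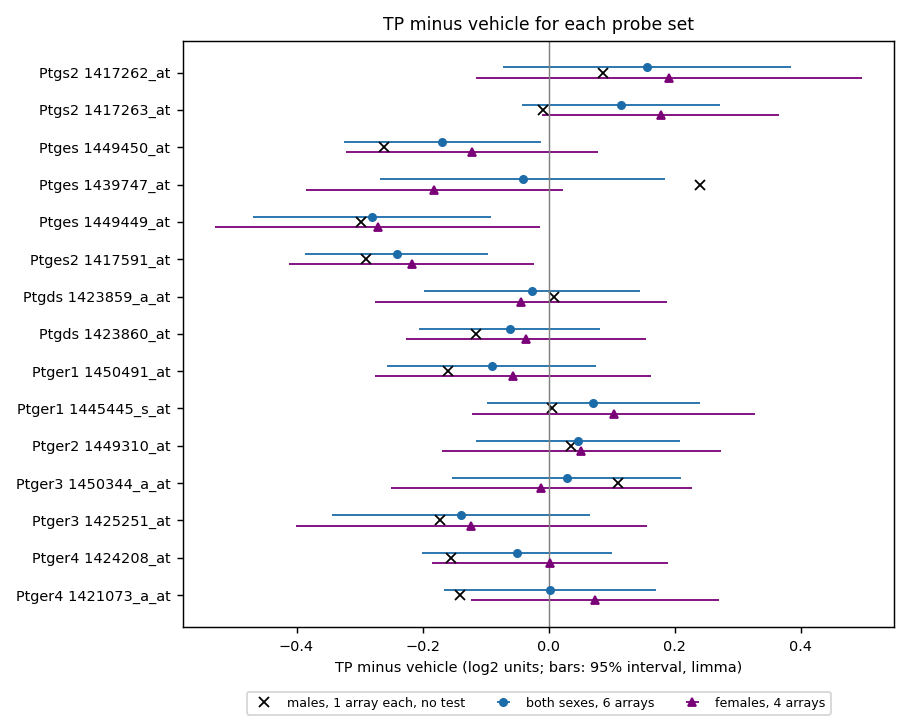
TP minus vehicle difference in log2 level for each of the 15 member probe sets, over both sexes and in females alone, with 95% intervals from limma as bars and the untested male difference as a separate mark. The intervals of Ptges2 and of Ptges 1449450_at and 1449449_at lie below 0 over both sexes before adjustment, and the other intervals over both sexes span 0.

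Ptgds encodes the lipocalin-type prostaglandin D synthase, which the meninges, choroid plexus and oligodendrocytes make. Its set 1423859_a_at read 13.52 and 13.73 in vehicle females, 13.56 and 13.61 in TP females, 13.54 in the vehicle male and 13.55 in the TP male. The vehicle females held both the lowest and the highest value, and the TP values fell between them. The difference over both sexes was -0.03 ± 0.07, with an interval from -0.20 to 0.14 (adjusted p = 0.908 in limma), and in females -0.04 ± 0.10 (adjusted p = 0.941). Its other set, 1423860_at, read 12.53 and 12.59 in vehicle females, 12.49 and 12.56 in TP females, 12.55 in the vehicle male and 12.44 in the TP male, and its groups overlapped too. That difference was -0.06 ± 0.06 with an interval from -0.20 to 0.08 (adjusted p = 0.712 in limma), and in females -0.04 ± 0.08 (adjusted p = 0.942). The range over arrays, 0.16, was the smallest of the 15 members. On the male TP array, where Ptgds differed by 0.01 and -0.11 from the male vehicle array, the summed markers of meninges stood at 84.8% and those of oligodendrocytes at 87.2% of the vehicle mean, and those of choroid plexus at 103%. These linear sums weigh the brightest genes most. Gene by gene, the TP difference in males lay below that in females at 8 of 10 choroid plexus markers and above it at 2 (median -0.11).

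The EP receptor genes overlapped between TP and vehicle at all 7 of their probe sets over both sexes. Ptger1 encodes EP1, which signals through calcium, and its set 1450491_at read 4.89 and 4.93 in vehicle females, 4.76 and 4.94 in TP females, 5.03 in the vehicle male and 4.87 in the TP male. The difference was -0.09 ± 0.07 (adjusted p = 0.634 in limma), and -0.06 ± 0.09 in females. The other Ptger1 set, 1445445_s_at, had values from 2.83 to 3.07 and differed by 0.07 ± 0.07 (adjusted p = 0.723), and by 0.10 ± 0.09 in females. Both sets were dim and their differences had opposite signs. Ptger2 encodes EP2, which raises cyclic AMP, and read 5.10 and 5.25 in vehicle females, 5.17 and 5.29 in TP females, 5.25 in the vehicle male and 5.28 in the TP male. Its TP and vehicle values were interleaved, with a difference of 0.05 ± 0.07 and an interval from -0.12 to 0.21 (adjusted p = 0.822 in limma), and in females 0.05 ± 0.09.

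Ptger3 encodes EP3, which mainly lowers cyclic AMP. By 1450344_a_at it read 6.73 and 6.67 in vehicle females, 6.80 and 6.58 in TP females, 6.67 in the vehicle male and 6.78 in the TP male. The TP females held both the highest and the lowest value, and the difference over both sexes was 0.03 ± 0.08, with an interval from -0.15 to 0.21 (adjusted p = 0.906 in limma). In females it was -0.01 ± 0.10. The dim set 1425251_at gave Ptger3 values from 2.96 to 3.29 and a difference of -0.14 ± 0.09 (adjusted p = 0.545), with -0.12 ± 0.12 in females. Ptger4 encodes EP4, the other receptor that raises cyclic AMP, and read by 1424208_at 6.85 and 6.79 in vehicle females, 6.81 and 6.84 in TP females, 6.96 in the vehicle male and 6.81 in the TP male. The vehicle male was the highest array, and the difference was -0.05 ± 0.06 with an interval from -0.20 to 0.10 (adjusted p = 0.786 in limma), against 0.0023 ± 0.08 in females. The dim set 1421073_a_at of Ptger4 had values from 3.03 to 3.22 and a difference of 0.0026 ± 0.07 (adjusted p = 0.993), with 0.07 ± 0.08 in females.

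In the 4 female arrays alone, 0 of 15 member probe sets passed in limma, against 0.00572% of all, and adjusted p-values ran from 0.622 to 0.996. At an unadjusted p under 0.05 there were 2 member sets, Ptges2 and Ptges 1449449_at, against 7.83% of all. Female TP arrays lay below female vehicle arrays at 4 member sets, those of Ptges2 and Ptges, against 22.5% of all, and above them at the 2 sets of Ptgs2, against 16.0%. The median member difference in females was -0.04 beside -0.02 over all probe sets. With 2 arrays against 2, non-overlap was thus common over the whole array, and the member counts are read against those shares.

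Between the sexes, with treatment as a term, 0 of 15 member sets passed in limma (0.0114% of all) and 0 reached an unadjusted p under 0.05 (12.5% of all). Male minus female differences of the members ran from -0.17 to 0.08, with adjusted p-values from 0.511 to 0.962. At no member set did the 2 male arrays lie wholly above the 4 female arrays, against 7.83% of all, or wholly below them, against 12.5%. Ptgs2 by 1417262_at differed by -0.17 ± 0.10, by 1417263_at by 0.06 ± 0.07, and Ptges2 differed by -0.10 ± 0.07. The test of a TP effect that differs by sex gave 0 of 15 member sets past the threshold (0.0200% of all). It gave 1 at an unadjusted p under 0.05 (4.84% of all), Ptges 1439747_at. That comparison uses single male arrays, which are assumed to vary like the female ones. The sex and interaction comparisons both rest on the array labelled male TP, and without it the male group has 1 array.

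The members varied little between arrays. Their range over the 6 arrays had a median of 0.24 log2 units, beside 0.29 over all single-gene probe sets. Dim member sets had a median range of 0.27 beside 0.36 for all dim sets, and the others 0.22 beside 0.24. The 4 genes whose levels followed Ptgds 1423859_a_at most closely over the 6 arrays were Pole, Ddx59, Mpp2 and Fbln2, with Pearson correlations of 0.986, 0.983, 0.983 and 0.975. For Ptgs2 1417262_at they were LOC102631979, Gm29514, Srrm4os and Mbd4, with correlations from 0.930 to 0.962. These were the highest of 3480 candidates over only 6 arrays that share their processing, and they are a description.

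Each other gene of the pathway was taken by its brightest probe set. Of 17 genes for other prostanoid synthases, receptors, transport and breakdown, 16 were measured and 0 passed in limma over both sexes. Differences were positive at 6 and negative at 10, with a median of -0.04 beside -0.03 over all genes. In females 4 were positive and 12 negative, with a median of -0.05 beside -0.02. Slco2a1, the prostaglandin uptake transporter, read 6.18 and 6.38 in vehicle females, 5.96 and 6.05 in TP females, 6.39 in the vehicle male and 6.12 in the TP male. Its TP arrays were all lower, with a difference of -0.27 ± 0.07 (adjusted p = 0.309 in limma), and -0.27 ± 0.10 in females (adjusted p = 0.614). Ptgis, prostacyclin synthase, and Abcc4, an efflux pump that carries prostaglandins, were also without overlap, at -0.19 ± 0.07 and -0.16 ± 0.07 (adjusted p = 0.377 and 0.399). In females they differed by -0.14 ± 0.09 and -0.21 ± 0.08. In all, 5 of the 16 genes lay lower without overlap and 1 higher, against 9.12% and 6.01% of all probe sets. In females 9 lay lower and 1 higher, against 22.5% and 16.0%. The higher one, chosen here after its value was seen, was the dim Hpgds, the hematopoietic prostaglandin D synthase, at 0.30 ± 0.11 (adjusted p = 0.378), and 0.39 ± 0.14 in females.

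Of 21 phospholipases and lipases that release arachidonic acid, 20 were measured, 11 of them dim, and 0 passed in limma. Differences were positive at 4 and negative at 16, with a median of -0.06 beside -0.03 over all genes. In females the counts were 6 and 14, with a median of -0.04 beside -0.02. Plaa, a phospholipase A2-activating protein, differed by 0.18 ± 0.09 and lay higher without overlap, and Pla2g3, a secreted phospholipase A2, differed by -0.16 ± 0.06 (adjusted p = 0.436 and 0.393). Pla2g4e, a cytosolic phospholipase A2 family member, differed by -0.11 ± 0.07 (adjusted p = 0.526). In females Plaa was at 0.25 ± 0.11, Pla2g3 at -0.19 ± 0.08 and Pla2g4e at -0.15 ± 0.08. Of 15 lipoxygenase and leukotriene genes, which use the same acid, 13 were measured, 8 of them dim, and 0 passed. Differences were positive at 4 and negative at 9, with a median of -0.01 beside -0.03 over all genes. The counts were the same in females, with a median of -0.05 beside -0.02. Aloxe3, an epidermal lipoxygenase, was at -0.17 ± 0.08 (adjusted p = 0.426 in limma), and at -0.21 ± 0.10 in females.

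**Figure D3:**
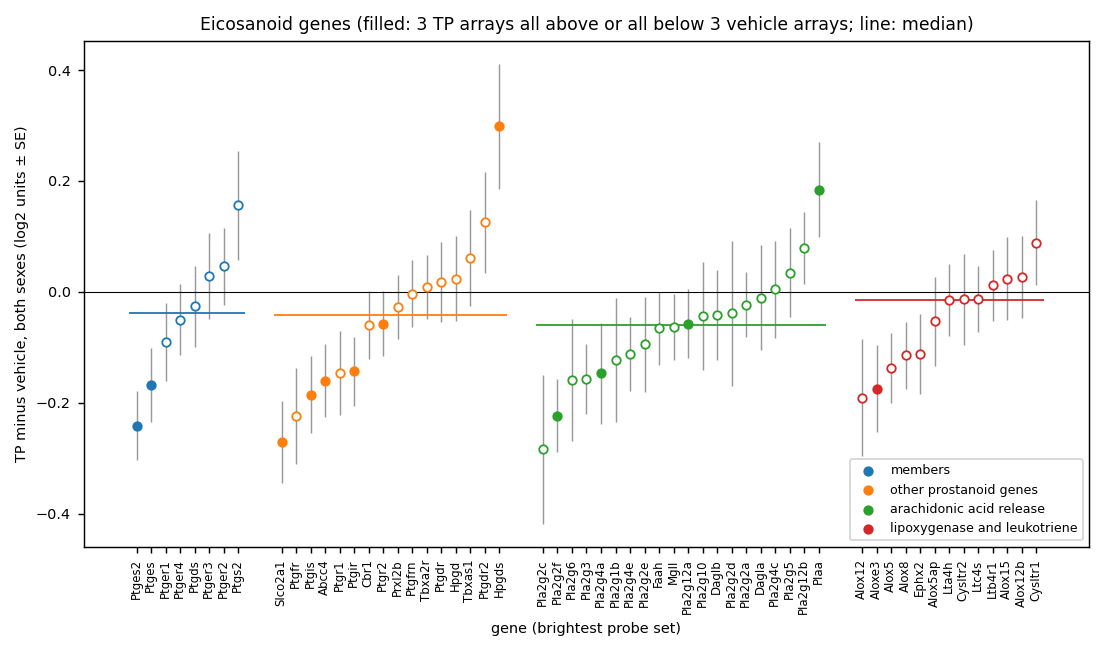
TP minus vehicle difference over both sexes, in log2 units with bars of ± 1 SE, for the 8 member genes and the measured genes of 3 other eicosanoid lists, each by its brightest probe set. Filled points are genes whose TP and vehicle arrays do not overlap, and horizontal lines are medians. Slco2a1, Ptgis and Abcc4 lie below 0 and Hpgds above it, and 0 genes passed the adjusted threshold.

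Of 27 cyclic AMP and spine genes that act after the EP receptors, 25 were measured and 0 passed in limma. Differences were positive at 21 and negative at 4, with a median of 0.04 beside -0.03 over all genes. Prkaca, the catalytic subunit of protein kinase A, read 11.2 and 11.3 in vehicle females, 11.5 and 11.4 in TP females, 11.2 in the vehicle male and 11.4 in the TP male. Its TP arrays were all higher, by 0.22 ± 0.07 (adjusted p = 0.339 in limma), and by 0.19 ± 0.09 in females. Adcy2, an adenylyl cyclase, went the other way without overlap, at -0.21 ± 0.06 (adjusted p = 0.316), and Akap5, the kinase anchor in dendritic spines, was at 0.18 ± 0.09 (adjusted p = 0.448). In females Adcy2 was at -0.18 ± 0.08 and Akap5 at 0.18 ± 0.12. Over both sexes 2 of these 25 genes lay higher without overlap and 1 lower, against 6.01% and 9.12% of all probe sets. In females 21 were again positive and 4 negative, with a median of 0.05 beside -0.02 over all genes. Of the 25 genes, 13 lay higher without overlap in females and 1 lower, against 16.0% and 22.5%. All were above the dim limit, and the 25% of all genes with the highest levels had a median female difference near 0, with 18.6% higher and 19.9% lower without overlap. Among the next to lowest 25%, 10.1% were higher and 29.0% lower, so these shares moved with level over the whole array. The part of level in the list's count was not tested.

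Of 14 inducers of Ptgs2, 13 were measured, 6 of them dim, and 0 passed in limma. Differences were positive at 4 and negative at 9, with a median of -0.06 beside -0.03 over all genes. In females 6 were positive and 7 negative, with a median of -0.03 beside -0.02. Cebpb, Cebpd and Rela, transcription factors that act on the Ptgs2 promoter, were at -0.09 ± 0.06, -0.08 ± 0.06 and -0.06 ± 0.06, and in females at -0.13 ± 0.08, -0.07 ± 0.08 and -0.03 ± 0.08. Of 8 steroid conversion and receptor genes, 5 were measured and 0 passed, with 2 positive and 3 negative differences, as in females. Esr1, which encodes estrogen receptor alpha, was at -0.10 ± 0.08, Nr3c1, the glucocorticoid receptor, at 0.09 ± 0.07, and Hsd17b4, which inactivates estradiol, at -0.10 ± 0.06. Their female differences were -0.12 ± 0.10, 0.10 ± 0.09 and -0.07 ± 0.08.

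Prostaglandin genes are carried by particular cells, so markers of those cells are given beside the member values. The median difference over all genes, beside which the marker medians stand, was -0.03 over both sexes and -0.02 in females. Meningeal markers were negative at 13 of 14 genes over both sexes, with a median of -0.10 and 6 lower without overlap, against 9.12% of all probe sets. In females they were negative at 10 of 14, with a median of -0.09, 8 lower and 2 higher without overlap, against 22.5% and 16.0%. Endothelial markers were negative at 9 of 9, with a median of -0.07 and 3 lower without overlap, against 9.12% of all probe sets. In females they were negative at 9 of 9, with a median of -0.08 and 6 lower, against 22.5%. Oligodendrocyte markers were negative at 9 of 10 (median -0.13), choroid plexus markers at 8 of 10 (median -0.09) and microglial markers at 9 of 12 (median -0.04). Without the male TP array these were nearer to 0: in females oligodendrocyte markers were negative at 7 of 10 (median -0.04), choroid plexus markers at 8 of 10 (median -0.05) and microglial markers at 6 of 12 (median 0.0008). Of 11 markers of skin and hair 8 were dim. They were negative at 10 of 11 over both sexes, with a median of -0.16 and 6 lower without overlap, against 9.12%. In females they were negative at 11 of 11, with a median of -0.17 and 8 lower, against 22.5%. All lists were chosen with earlier results of these data known, and the skin and hair list holds Krtap19-5. Its counts are therefore a description and are not independent of those results. No cell marker passed in limma over both sexes. In females the hair keratin-associated gene Krtap19-5 passed and was lower, at -1.21. Ibsp, of the cartilage and bone list, also passed in females and was higher, at 1.64 (adjusted p = 0.0354 in limma for each). In summed linear level, in units of 1000, the 14 meningeal markers ran from 5.31 to 5.47 on the vehicle arrays and from 4.57 to 5.42 on the TP arrays, with the lowest value on the male TP array. Endothelial sums ran from 2.64 to 2.85 and from 2.48 to 2.77, microglial sums from 2.89 to 2.96 and from 2.75 to 2.96, and oligodendrocyte sums from 11.5 to 12.5 and from 10.4 to 11.9. Choroid plexus sums ran from 17.4 to 18.1 with vehicle and from 17.7 to 18.4 with TP, the highest on the male TP array. A linear sum weighs its brightest genes most, and gene by gene 8 of 10 choroid plexus markers were negative, as given above. Neuronal sums were 48.5 to 49.8 with vehicle and 49.0 to 49.5 with TP, so the defining markers of the labelled tissue were present on every array. Of 9 mast cell markers 7 were dim. The part of these cell markers in the lower values of Ptges, Ptges2 and Slco2a1 was not tested.

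**Figure D4:**
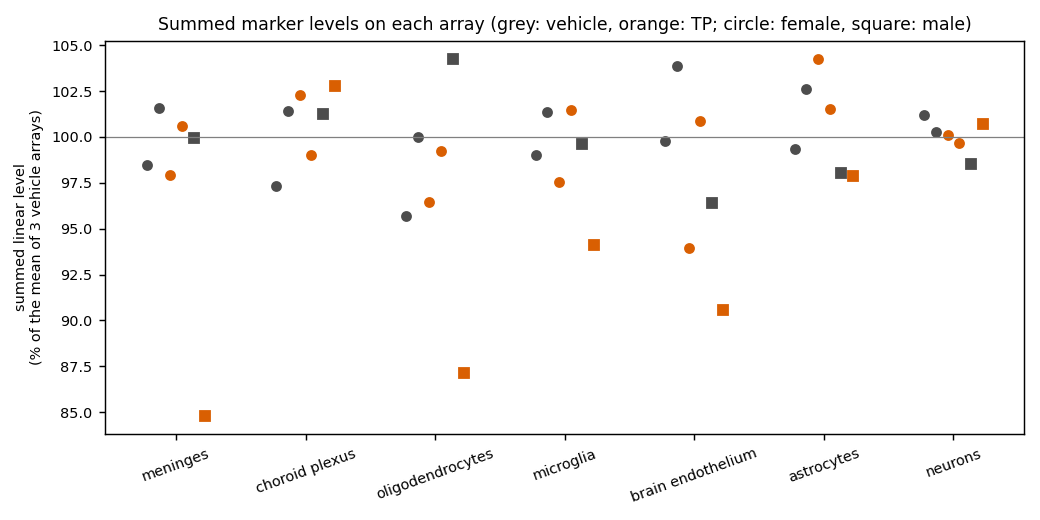
Summed linear expression of each cell type's marker genes on the 6 arrays, in percent of the mean of the vehicle arrays. The array labelled male TP has the lowest meningeal and oligodendrocyte sums, at 84.8% and 87.2%.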

How the data were processed

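The deposited values are log2 expression levels per probe set, made by the authors with RMA (background correction, normalization between arrays and summarization of probes) per the submitters' processing notes. The RMA version was not given in the sources used here. Depth does not apply to array values, and precision is limited by how few arrays there are. Of 45101 probe sets, 34945 had 1 gene symbol in the platform annotation, 932 had several and 64 were controls. Only the 34945 were kept, so sets with several genes or no gene symbol were left out with the controls. All single-gene probe sets were fitted in R 4.3.3 by lmFit and eBayes of limma 3.58.1 (two-sided, Benjamini-Hochberg over all of them), and tables were made with Python 3.11.15. Treatment was tested over 6 arrays with sex as a term and over the 4 female arrays; sex was tested with treatment as a term, and the interaction over 4 groups. The male groups have 1 array each and no test of their own. The fit was tested on simulated data. Groups come from the labels, and no pair of arrays shared more than 215 equal values. All members are named with every single-gene probe set. From each other list the text names up to 3 genes above the 40th percentile of level with the smallest p. The members and lists were chosen with earlier results of these data known. Alternatives were 1 probe set or the mean per gene, leaving out dim sets, quantile normalization, centring, an intensity trend, the replicate block, leaving out each female array or the male TP array, and, chosen after seeing the data, the count without overlap when the male TP array is left out.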

Additional observations from a re-analysis of the deposited data

Results flagged for a closer look

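Xist read 10.4 on the array labelled male TP (10.45 to 2 decimals), where the male vehicle array read 5.29, so the difference between TP and vehicle in males was 5.16 log2 units beside 0.16 ± 0.08 in females (adjusted p = 0.000143 in limma's interaction test, with 1 array in each male group). The member comparisons over both sexes, between sexes and of the interaction use this array.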

How the results depend on the processing

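Over 40 member results, 420 values were recomputed. Of these, 395 kept their sign and side of the threshold, and 25 in 13 results turned their sign. The recomputed sex results cover only Ptgs2, Ptges and Ptges2, and the interaction results only Ptges and Ptges2. Taking 1 set per gene, leaving out dim sets and the intensity trend cannot change a set's difference, nor can the replicate block for TP. Those signs were fixed in advance, and only the p could move. No member passed under any alternative run. The difference over both sexes ran from -0.28 to -0.21 for Ptges2 (adjusted p from 0.0932, with an intensity trend, to 0.622), from -0.35 to -0.21 for Ptges 1449449_at (0.269 to 0.625) and from -0.21 to -0.12 for Ptges 1449450_at (0.228 to 0.755). For Ptgs2 1417262_at, leaving out 1 female vehicle array gave 0.04 or 0.25. Leaving out the male TP array, 3 member sets were lower without overlap, as with it. That count could only stay or rise, so it cannot show whether the result rests on that array. Without that array, the differences over both sexes are those of the females alone, since the sex term takes up the only male array left. Signs turned over both sexes for Ptger3 1450344_a_at (-0.0554 with the mean per gene, -0.0116 without the male TP array), Ptgds 1423859_a_at (0.0022 centred) and Ptger4 1424208_at (0.0023 without the male TP array). In females they turned for Ptger1 1450491_at (0.0237 with the mean) and Ptger3 1450344_a_at (0.0074 quantile, 0.0120 centred), and in the interaction for Ptges 1449450_at (0.0851 with the mean). Leaving out each female array in turn gave ranges that crossed 0. Over both sexes these were -0.0413 to 0.0395 for Ptges 1439747_at, -0.0421 to 0.0064 for Ptger4 1421073_a_at, -0.0812 to 0.0384 for Ptgds 1423859_a_at and -0.0243 to 0.105 for Ptger3 1450344_a_at; without the male TP array the first pair read -0.18 and 0.07. In females they were -0.266 to 0.0197 for Ptger3 1425251_at, -0.0212 to 0.125 for Ptger2, -0.125 to 0.102 for Ptger3 1450344_a_at, -0.149 to 0.0605 for Ptgds 1423859_a_at, -0.0312 to 0.0359 for Ptger4 1424208_at and -0.146 to 0.0341 for Ptger1 1450491_at, and in the interaction -0.147 to 0.0938 for Ptges 1449449_at. Of all probe sets, 38 passed over both sexes with the intensity trend, against 0. Without the male TP array the fit is that of the females alone, in which 2 passed. In females 2 passed, against 5 with 1 set per gene, 1 without dim sets, 6 after quantile normalization, 6 centred, 16 with the trend and 0 to 0 leaving out each female array. Between sexes 4 passed, against 0 without dim sets, 37 with the trend and 2 with the replicate block, which takes original and replica as blocks though the labels do not pair them. In the interaction 7 passed, against 2 with 1 set or the mean per gene and 12 with the trend. Those 7 were sets of Ibsp, Xist and Gh. The 4 that passed between sexes were sets of the sex-linked genes Eif2s3y, Kdm5d and Uty. These are dim by their mean over all arrays, so they drop out without dim sets. The cause of the other changes was not tested. Precision is limited by 2 arrays per female group and 1 per male group, and 9 of 15 member sets were dim.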
